A study of Danio rerio with 3 samples.

Results

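The genes described here are sele and selp, the zebrafish genes of E-selectin and P-selectin. They were taken by symbol from the deposited expression tables of a study that sorted cells of zebrafish embryos aged 72 hours. The double positive table holds 14581 gene symbols, and each of the 2 genes has 1 row in it. The table of the kdrl:GFP embryos holds 33734 rows, of which 1 is named sele and 2 are named selp.

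Selectins are lectins on the surface of activated endothelium, platelets and leukocytes. They bind sialylated and fucosylated sugars, of which sialyl Lewis x is the best known, on passing blood cells and slow them to a rolling motion before firmer adhesion through integrins. In mammals E-selectin is made mainly by endothelial cells, where inflammatory signals acting through NF-kB induce its gene. P-selectin is stored in platelet granules and in the Weibel-Palade bodies of endothelium and is brought to the surface within a short time of stimulation.

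RNA was sequenced in 3 libraries, 1 for each sorted population, all from embryos labelled wild-type. The labels name no treatment. The first library holds kdrl:mCherry+;sele:GFP+ cells, here called double positive. The red reporter is named for kdrl, which encodes a Vegf receptor of endothelial cells, and the green one for sele. The other libraries hold kdrl:GFP + cells and kdrl:GFP - cells of embryos that carried a green kdrl reporter. Their values are deposited in 1 table under the column names EH_1 and EH_2, and no label says which column is the positive and which the negative fraction. The fractions were therefore not assigned, and these libraries are called EH_1 and EH_2 throughout. They are not replicates of each other. The double positive population was chosen with a sele reporter, so a high sele value there belongs to the design of the sort. All 3 populations were sorted by a kdrl reporter. A difference in kdrl or other endothelial genes between the kdrl:GFP + and kdrl:GFP - cells therefore belongs to that design too. What lies behind such differences between the double positive library and the others was not tested. Whether either reporter carried transcribed sele or kdrl sequence was not examined.

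All values are FPKM, which corrects the fragments assigned to a gene for its length and for the size of the library. With 1 library per population there was no test and no error between samples, and the number of fragments behind each value is unknown. The 2 tables were made separately and list different sets of genes, so their gene annotations are taken to differ, though no source names them. Over the 8705 symbols at 1 FPKM or more in all 3 libraries, the median log2 ratio was 0.50 for the double positive library over EH_1 and 0.60 for the double positive library over EH_2. It was 0.10 for EH_1 over EH_2. Levels of sele and selp are therefore given beside their rank within the library, and levels of other genes set across the tables carry this difference in scale. In bulk RNA, a larger share of cells that express a gene and more of its RNA per cell cannot be told apart.

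The E-selectin gene was abundant in 2 of the 3 libraries and close to the bottom of the expressed range in the other. It stood at 415 FPKM in the double positive library, 87.0 FPKM in EH_1 and 0.254 FPKM in EH_2. Its row in the kdrl:GFP table is ENSDARG00000009123. The double positive value took rank 178 of 14581 symbols, the 98.8th rank percentile. The EH_1 value took rank 765 of 33734 rows, the 97.7th percentile, and the EH_2 value took rank 22212, the 34.2nd percentile. Many rows of the second table are listed at 0, which lifts the percentile of low genes. Among the 12507 symbols found in both tables, sele lay at the 98.7th percentile in the double positive library, the 95.8th in EH_1 and the 10.1st in EH_2. In that common set, 163 symbols exceeded sele in the double positive library, 522 in EH_1 and 11248 in EH_2.

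The P-selectin gene was low in the double positive library and in EH_1 and was listed at 0 in EH_2. It stood at 4.63 FPKM in the double positive library, rank 7939 and the 45.6th percentile, below the library's median of 5.98 FPKM. Of its rows in the kdrl:GFP table, ENSDARG00000042138 stood at 1.101 FPKM in EH_1 and at 0 in EH_2. The other row, ENSDARG00000096787, stood at 0.189 FPKM in EH_1 and also at 0 in EH_2. The larger EH_1 value lay at the 47.5th percentile of all rows. The names of these rows are uncertain. A separate table of gene identifiers gives ENSDARG00000042138 the symbol SELE and holds no entry for ENSDARG00000096787, whereas ENSDARG00000009123 is sele in both sources. Fragments of selp may be divided between its rows, so the sum of 1.29 FPKM in EH_1 is used where 1 value is needed. Among the symbols in both tables, selp then lay at the 42.8th percentile in the double positive library, the 23.5th in EH_1 and, listed at 0, the 2.93rd in EH_2. A listed 0 was not read as absence.

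**Figure D1:**
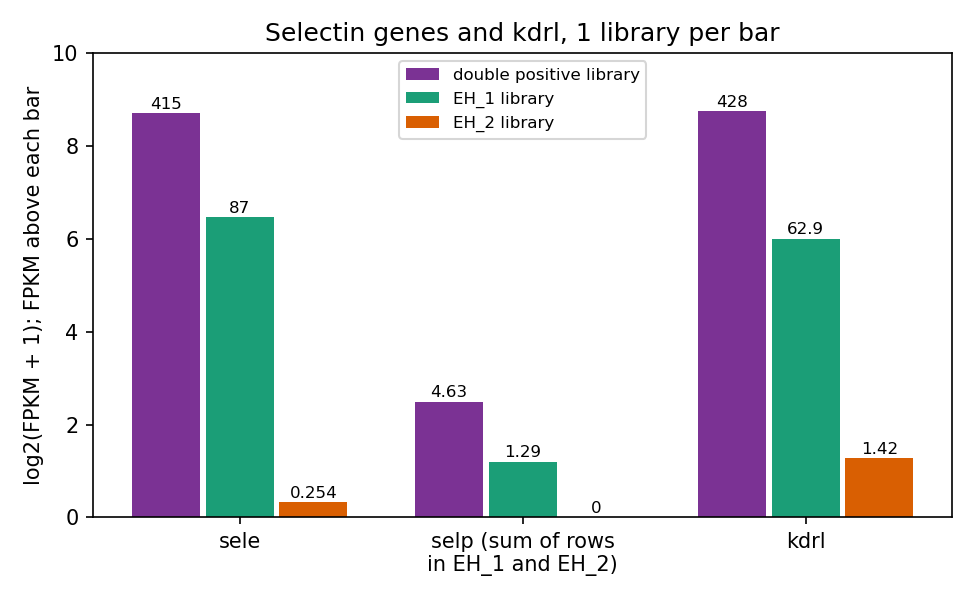
FPKM of sele, selp and kdrl in the double positive, EH_1 and EH_2 libraries, drawn on a log2(FPKM + 1) axis with the FPKM written above each bar and 1 library per bar. The order of libraries is the same for the 3 genes, and sele exceeds kdrl in EH_1, at 87.0 against 62.9 FPKM.

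Both libraries with a value for both selectin genes held far more sele than selp. A ratio of 2 values of the same library does not depend on the scaling between tables. In the double positive library sele was 89.8-fold higher than selp. In EH_1 it was 79.0-fold higher than the larger selp row, 67.4-fold higher than the sum of the selp rows and 459-fold higher than the smaller row alone. The ratio in EH_1 therefore rests on which selp row is counted. No ratio is given for EH_2, where selp was listed at 0.

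The selectin genes lie close together, and the genes beside them did not share the level of sele. In the RefSeq gene table of assembly GRCz12tu, 1 protein-coding gene, with no row used here, lies between selp and sele. Of the 7 protein-coding neighbours looked at, that gene and 3 on each side, 6 had a value in both tables. On the far side of selp, lmx1a stood at 0.657 FPKM in the double positive library, 0.320 FPKM in EH_1 and 0.197 FPKM in EH_2. On the far side of sele, si:dkey-51e6.1 stood at 22.1 FPKM in the double positive library, 2.89 FPKM in EH_1 and 2.49 FPKM in EH_2. The egg coat genes zp3a.2 and zp3a.1 stood at 0.431 and 0.488 FPKM in the double positive library. The highest of these neighbours was atf6, a stress-response factor gene, at 63.2 FPKM in the double positive library, 44.3 FPKM in EH_1 and 37.4 FPKM in EH_2. None of the 6 reached the sele value of the double positive library or of EH_1. Few symbols did. Of the 12507 symbols in both tables, 163 exceeded sele in the double positive library and 522 in EH_1. Lower neighbours are therefore nothing particular to this locus.

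Between the libraries of the kdrl:GFP embryos, sele was 343-fold higher in EH_1 than in EH_2, a log2 ratio of 8.42. Among the 20025 rows at 1 FPKM or more in either library, 13.8% were at least 2-fold higher in EH_1, 19.7% were at least 2-fold lower and 1.55% were at least 100-fold higher. Of the 18060 rows at 1 FPKM or more in EH_1, 278 were listed at 0 in EH_2. By ratio, sele took place 10 among the other 17782, and kdrl took place 82. Just above sele stood TBC1D10C, 376-fold higher in EH_1, and just below it BCL6B, 338-fold higher. The first place belonged to pecam1a, an adhesion gene of endothelium and blood cells listed under an older provisional name, at 88.3 FPKM in EH_1 and 0.0473 FPKM in EH_2. Such ratios rest on very low EH_2 values. The 9 rows with a larger ratio than sele had a median of 0.0473 FPKM in EH_2.

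The larger selp row also passed 1 FPKM, through EH_1 alone, and having been listed at 0 in EH_2 it had to differ. No fold is given for it. The kdrl gene, which names the reporter used to sort these embryos, stood at 62.9 FPKM in EH_1 and 1.42 FPKM in EH_2, a 44.3-fold difference. Such a difference belongs to the design of the sort.

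**Figure D2:**
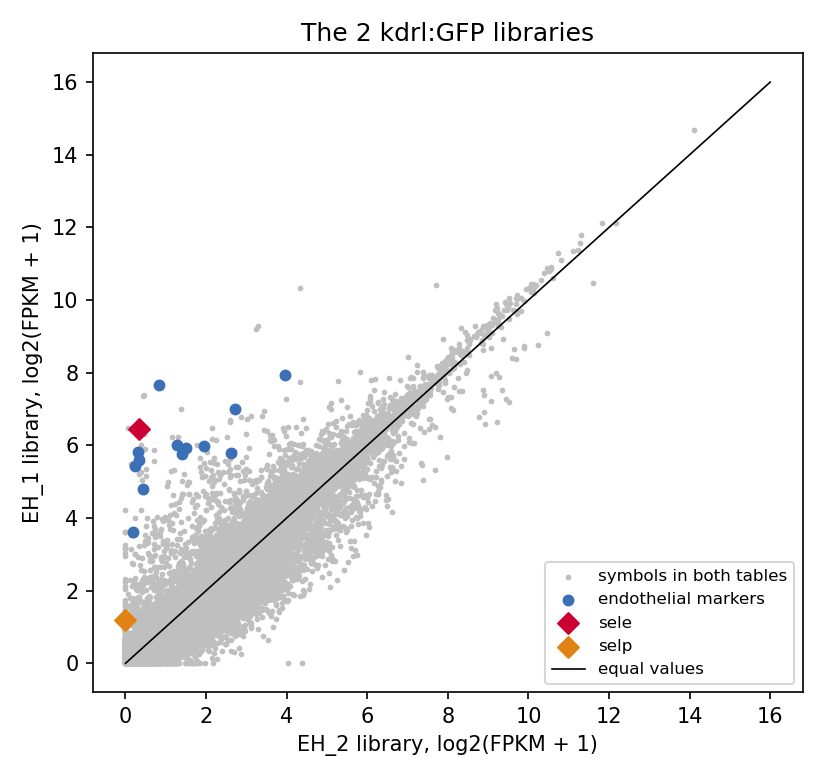
Levels in EH_1 against EH_2 on log2(FPKM + 1) axes for the 12507 symbols in both tables (grey), 13 endothelial marker genes (blue), sele and selp (diamonds) and the line of equal values (black). The sele point lies among the endothelial markers far above the line, and selp lies at the left edge, at 1.29 FPKM in EH_1 and 0 in EH_2.

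The sele gene had the same order of libraries as the endothelial marker genes. All 13 markers of endothelium found in both tables had their highest value in the double positive library, the middle value in EH_1 and the lowest in EH_2. The share of all symbols with this order was not counted. Median log2 ratios over symbols at 1 FPKM or more run the same way, at 0.50 for double positive over EH_1 and 0.10 for EH_1 over EH_2. Sorting on kdrl reporters also selects on such markers. The median of the list was 280.4 FPKM in the double positive library, over 13 members found. It was 57.7 FPKM in EH_1 and 1.103 FPKM in EH_2, over 14 members found. The cadherin gene cdh5 stood at 843 FPKM in the double positive library, 202 FPKM in EH_1 and 0.786 FPKM in EH_2. The tight junction gene cldn5b stood at 653 FPKM in the double positive library, 126 FPKM in EH_1 and 5.57 FPKM in EH_2. The 13 markers were between 10.5-fold, for aplnrb, and 257-fold, for cdh5, higher in EH_1 than in EH_2, with a median of 44.3-fold. The sele ratio of 343 exceeded each of them. With 1 FPKM added to each value it exceeded 12 of the 13. The marker pecam1a, which is in the tables under another name and not among the 13, had a larger ratio than sele.

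Relative to those markers, the level of sele covered overlapping ranges in the double positive library and in EH_1. The ratio of sele to kdrl was 0.970 in the double positive library, 1.38 in EH_1 and 0.179 in EH_2. The median ratio of sele to the 13 markers was 1.48 in the double positive library, 1.56 in EH_1 and 0.179 in EH_2. For 8 markers the ratio was higher in the double positive library than in EH_1 and for 5 it was lower. The ratio differed most, as a fold, for fli1a, an Ets factor gene of endothelium, at 1.08 in the double positive library and 0.360 in EH_1. In the other direction, the ratio to the angiopoietin receptor gene tek was 4.66 in the double positive library and 7.71 in EH_1. In the double positive library 10 of 13 markers lay below sele, in EH_1 also 10, and in EH_2 3. Because the annotations of the tables appear to differ, a ratio to a single marker can also differ through the gene model.

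**Figure D3:**
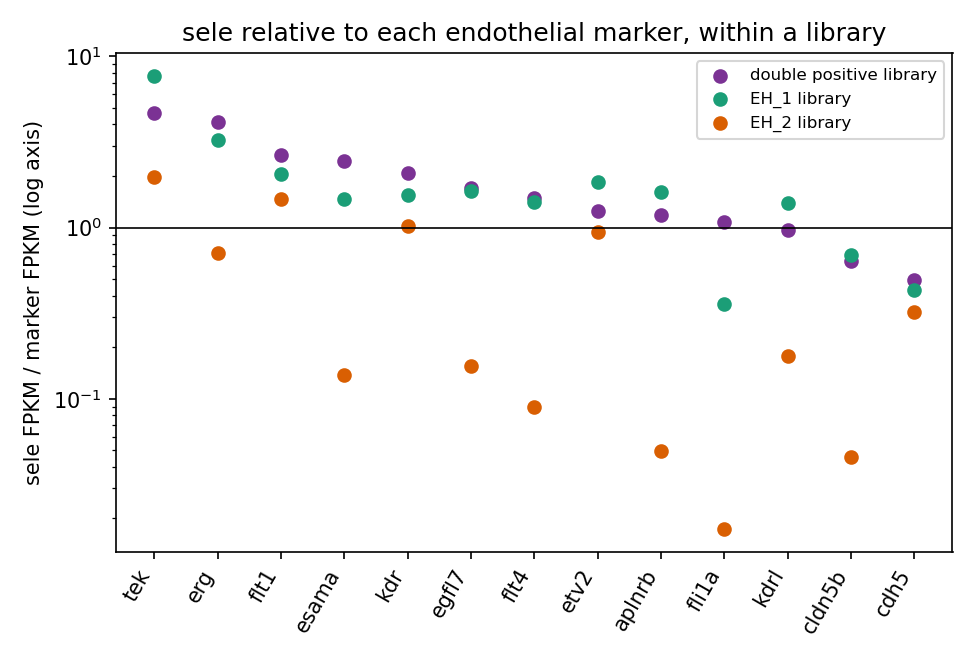
Ratio of the sele FPKM to the FPKM of each of 13 endothelial marker genes within the double positive, EH_1 and EH_2 libraries, on a log axis with a line at 1. The double positive and EH_1 points overlap in range, from 0.493 to 4.66 and from 0.360 to 7.71, and the EH_2 points run from 0.0174 to 1.97.

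Set side by side, sele was 4.78-fold higher in the double positive library than in EH_1, kdrl 6.80-fold and selp 3.58-fold by the sum of its rows. The 13 markers ranged from 1.58-fold for fli1a to 7.90-fold for tek, with a median of 4.53-fold, and 8 of them had a smaller ratio than sele. Relative to the median of the symbols at 1 FPKM or more, the log2 difference was 1.76 for sele, 2.27 for kdrl and 1.35 for selp.

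Markers of blood cells also differed between the libraries, and their part in the selectin values was not tested. Thrombocytes are the fish counterparts of platelets, a known source of P-selectin in mammals. Summed over the 6 thrombocyte markers in both tables, the level was 188 FPKM in the double positive library, 87.2 FPKM in EH_1 and 13.7 FPKM in EH_2. The integrin gene itga2b stood at 43.2 FPKM in the double positive library, 3.75 FPKM in EH_1 and 0 in EH_2. The thrombopoietin receptor gene mpl stood at 42.4 FPKM in the double positive library, 7.15 FPKM in EH_1 and 0 in EH_2. The platelet receptor gene gp1bb stood at 33.6 FPKM in the double positive library, 5.93 FPKM in EH_1 and 2.98 FPKM in EH_2. The clotting factor gene f13a1b had another order, with 29.3 FPKM in the double positive library, 45.1 FPKM in EH_1 and 3.61 FPKM in EH_2. The gene thbs1b has no row in the double positive table used here and was lower in EH_1, at 43.1 FPKM, than in EH_2, at 77.9 FPKM. All 6 markers in both tables lay above selp in the double positive library, where it stood at 4.63 FPKM. Most symbols of that library did so too, as selp took rank 7939 of 14581.

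Myeloid markers were highest in EH_1. All 9 neutrophil markers and all 12 macrophage markers were at least 2-fold higher in EH_1 than in EH_2, beside 13.8% of all rows. The summed neutrophil level was 249.6 FPKM in the double positive library, 3035 FPKM in EH_1 and 99.2 FPKM in EH_2. The largest part of the double positive sum came from srgn. The neutrophil median was lower in the double positive library than in EH_2, at 6.08 and 8.50 FPKM, and was 126 FPKM in EH_1. The lysozyme gene lyz stood at 33.4 FPKM in the double positive library, 1297 FPKM in EH_1 and 19.3 FPKM in EH_2, and lect2l was at 0 in the double positive library. Unlike the other neutrophil markers, the proteoglycan gene srgn was highest in the double positive library, at 151 FPKM, beside 126 FPKM in EH_1 and 1.60 FPKM in EH_2. Of the others, mmp9, mmp13a, npsn and lect2l were lower in the double positive library than in EH_2. The genes mpx, lyz, nccrp1 and csf3r were higher there than in EH_2. Over the 11 macrophage markers in both tables, the summed level was 37.6 FPKM in the double positive library, 365 FPKM in EH_1 and 35.9 FPKM in EH_2, with c1qc at 0 in the double positive library. Their median was 1.77 FPKM in the double positive library, 31.0 FPKM in EH_1 and 3.21 FPKM in EH_2. The highest macrophage marker in the double positive library was lcp1, an actin-bundling protein gene of leukocytes. It stood at 19.3 FPKM there, 71.4 FPKM in EH_1 and 3.45 FPKM in EH_2. Markers of skin and muscle were abundant in both EH_1 and EH_2. The epidermal median was 13.4 FPKM in the double positive library, 419 FPKM in EH_1 and 552 FPKM in EH_2. Gene by gene, the median epidermal ratio of EH_1 over EH_2 was 0.515. Of 8 epidermal markers, 3 were at least 2-fold lower in EH_1 and 1 at least 2-fold higher, beside 19.7% and 13.8% of all rows. The keratin gene krt8 of that list ran in the other direction, at 1494 FPKM in the double positive library, above sele, 486 FPKM in EH_1 and 235 FPKM in EH_2. The skeletal muscle median was 17.2 FPKM in the double positive library, 132 FPKM in EH_1 and 166 FPKM in EH_2. The erythroid median was 9.55 FPKM in the double positive library, 48.8 FPKM in EH_1 and 29.96 FPKM in EH_2. Gene by gene, the median erythroid ratio of EH_1 over EH_2 was 1.08, and 9 of 10 members lay within 2-fold. The neuronal median was 8.50 FPKM in the double positive library, 15.9 FPKM in EH_1 and 46.6 FPKM in EH_2.

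**Figure D4:**
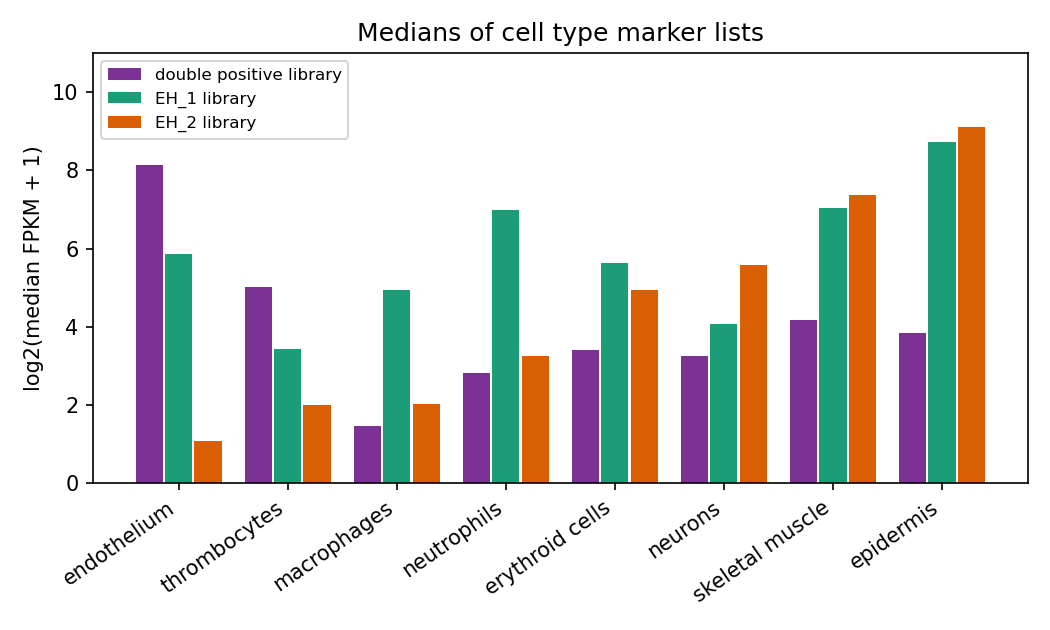
Median FPKM of 8 lists of cell type markers in the double positive, EH_1 and EH_2 libraries, on a log2(median FPKM + 1) axis with 1 library per bar. The endothelial median falls in the order of the sele values, 280.4, 57.7 and 1.103 FPKM, and the neutrophil and macrophage medians are highest in EH_1.

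Genes whose products carry or build selectin ligands were measured beside the selectins. The list of ligands has few members in the tables, 3 in the double positive table and 5 in the kdrl:GFP table. The highest in the double positive library was podxl, a sialomucin whose mammalian counterpart can bind L-selectin, at 488 FPKM in the double positive library, 111 FPKM in EH_1 and 9.41 FPKM in EH_2. In the double positive library, selplg, named for the P-selectin ligand of leukocytes, stood at 14.6 FPKM and glg1b, a Golgi glycoprotein gene, at 10.1 FPKM. For glg1b, EH_1 held 2.49 FPKM and EH_2 7.17 FPKM. Its relative glg1a, which has no row in the double positive table used here, was the highest of the list in EH_2, at 62.8 FPKM in EH_1 and 56.3 FPKM in EH_2. The gene cd44b, also without a row there, stood at 8.13 FPKM in EH_1 and 0.243 FPKM in EH_2. Of 4 ligand genes tested, 2 were at least 2-fold higher in EH_1 than in EH_2 and 1 at least 2-fold lower, beside 13.8% and 19.7% of all rows.

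The list of enzymes and transporters for sialylated and fucosylated sugars also counts the tpst genes, whose products sulfate proteins. Its members ran from 0 to 143 FPKM in the double positive library. Of 20 found in the double positive table, 16 reached 1 FPKM and 10 reached 10 FPKM, with a median of 12.0 FPKM. Over all symbols of that library, 73.3% reached 1 FPKM and 40.0% reached 10 FPKM, with a median of 5.98 FPKM. The branching enzyme gene gcnt4a stood at 143 FPKM in the double positive library, 51.7 FPKM in EH_1 and 16.9 FPKM in EH_2. The sialyltransferase genes st3gal3a and st3gal4 stood at 84.9 and 79.9 FPKM in the double positive library. In EH_1 they stood at 50.2 and 45.7 FPKM, and in EH_2 at 25.0 and 6.37 FPKM. The gene fut7, whose mammalian counterpart adds the fucose of selectin ligands in leukocytes, stood at 1.46 FPKM in the double positive library, 10.6 FPKM in EH_1 and 0.397 FPKM in EH_2. It was thus highest in EH_1. Other fucosyltransferase genes of the list had other orders. The genes fut9a and fut9b were highest in EH_2, at 1.71 and 15.1 FPKM, and fut8a in the double positive library, at 9.10 FPKM. Which cells held these RNAs was not tested. Between EH_1 and EH_2, 6 of 21 members tested were at least 2-fold higher in EH_1 and 3 at least 2-fold lower, beside 13.8% and 19.7% of all rows.

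Other adhesion molecules of endothelium had a median of 109 FPKM in the double positive library, over 12 members found, and 2 of them, cdh5 and cldn5b, exceeded sele. Over the members in no other list the median was 60.2 FPKM. The immunoglobulin family gene mcamb followed at 313 FPKM in the double positive library, 103 FPKM in EH_1 and 5.08 FPKM in EH_2. The gene vcam1, whose mammalian counterpart is also induced by inflammation, stood at 12.6 FPKM in the double positive library, 4.12 FPKM in EH_1 and 3.63 FPKM in EH_2. Among the members tested between EH_1 and EH_2, 6 of 14 were at least 2-fold higher in EH_1 and 3 at least 2-fold lower, beside 13.8% and 19.7% of all rows. The median ratio was 1.02, beside 1.01 over all rows. The gene of this list whose values were closest to those of sele was pecam1, now pecam1a, which the tables hold under another name and which is not in these counts. It stood at 430.1 FPKM in the double positive library, 88.3 FPKM in EH_1 and 0.0473 FPKM in EH_2.

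Integrins take over from selectins when a rolling cell arrests. Of 7 members tested, 5 were at least 2-fold higher in EH_1 than in EH_2 and none was 2-fold lower, beside 13.8% and 19.7% of all rows. The beta1 gene itgb1b stood at 494 FPKM in the double positive library, 181 FPKM in EH_1 and 70.5 FPKM in EH_2. Another beta1 gene, itgb1a, stood at 51.3 FPKM in the double positive library, 27.95 FPKM in EH_1 and 24.9 FPKM in EH_2. The alpha subunit gene itgav ran in the other direction, at 35.3 FPKM in the double positive library, 56.0 FPKM in EH_1 and 95.6 FPKM in EH_2. The leukocyte gene itgb2 stood at 48.9 FPKM in EH_1 and 2.35 FPKM in EH_2 and has no row in the double positive table used here.

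Genes of NF-kB and inflammatory signalling, inhibitors included, were measured because such signalling is known to induce E-selectin in mammals. In the double positive library 16 of 19 members stood at 1 FPKM or more, beside 73.3% of all symbols. Their median was 14.4 FPKM, beside 5.98 FPKM over all symbols. The inhibitor genes nfkbiab and nfkbiaa stood at 463 and 106 FPKM in the double positive library, 260.5 and 103 FPKM in EH_1 and 151 and 64.9 FPKM in EH_2. The cytokine receptor gene il6st stood at 106 FPKM in the double positive library, 45.2 FPKM in EH_1 and 36.9 FPKM in EH_2. The factor genes rel and rela stood at 38.7 and 22.5 FPKM in the double positive library, 34.5 and 19.1 FPKM in EH_1 and 15.8 and 12.7 FPKM in EH_2. The cytokine gene il1b stood at 3.88 FPKM in the double positive library, 37.7 FPKM in EH_1 and 4.31 FPKM in EH_2. Between EH_1 and EH_2, 6 of 20 members were at least 2-fold higher in EH_1 and none 2-fold lower, beside 13.8% and 19.7% of all rows. The median ratio was 1.75, beside 1.01 over all rows.

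Genes of Weibel-Palade bodies and granule release were measured because P-selectin is stored there. In the double positive library 13 of 14 members stood at 1 FPKM or more, beside 73.3% of all symbols. Their median was 9.99 FPKM. The gene of von Willebrand factor, vwf, the main cargo of these granules in mammals, stood at 8.46 FPKM in the double positive library, 2.74 FPKM in EH_1 and 0.0411 FPKM in EH_2. Thus vwf stood above the median of all symbols of the double positive library, 5.98 FPKM, and selp below it. The tetraspanin gene cd63, another granule component, stood at 704 FPKM in the double positive library, 225 FPKM in EH_1 and 71.6 FPKM in EH_2. The fusion protein genes vamp3 and stx4 stood at 243 and 86.3 FPKM in the double positive library, 99.6 and 31.2 FPKM in EH_1 and 49.3 and 13.6 FPKM in EH_2. Of 17 members tested, 9 were at least 2-fold higher in EH_1 than in EH_2 and 2 at least 2-fold lower, beside 13.8% and 19.7% of all rows.

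Some other proteins carry a lectin domain or, like the stabilins, bind sugar polymers. The scavenger receptor gene stab1 stood at 453 FPKM in the double positive library, 74.3 FPKM in EH_1 and 1.47 FPKM in EH_2, and was the 1 member of this list above sele in the double positive library. The endothelial lectin gene clec14a stood at 274 FPKM in the double positive library, 78.4 FPKM in EH_1 and 0.372 FPKM in EH_2. The gene stab2 stood at 188 FPKM in the double positive library, 39.4 FPKM in EH_1 and 0.416 FPKM in EH_2. Among the members tested, 7 of 13 were at least 2-fold higher in EH_1 than in EH_2 and 3 at least 2-fold lower, beside 13.8% and 19.7% of all rows.

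The series title concerns transcription factors. Of the Ets, SoxF and nuclear receptor genes in the list, 15 were found in the double positive table, all at 1 FPKM or more and none above sele. Of all symbols there, 73.3% stood at 1 FPKM or more, and sele lay at the 98.8th percentile. The highest were fli1a, etv2 and ets1, at 383, 333 and 320.1 FPKM in the double positive library. For fli1a, EH_1 held 242 FPKM and EH_2 14.6 FPKM. For etv2, a gene of early endothelial fate, EH_1 held 47.0 FPKM and EH_2 0.271 FPKM. Between EH_1 and EH_2, 7 of 14 members were at least 2-fold higher in EH_1 and 1 at least 2-fold lower, beside 13.8% and 19.7% of all rows. The higher members were all Ets or SoxF genes, and the lower was the nuclear receptor gene nr2f1b. The Ets genes elf2a and elf2b and the other nuclear receptor genes tested lay within 2-fold.

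The pattern of each selectin gene over the 3 libraries was set beside that of every other symbol in both tables. Likeness was the largest absolute difference in log2(FPKM + 1) over the libraries, so that a smaller value is more alike. The 5 symbols nearest to sele were pecam1a, under its older name, ptprb, myct1, clec14a and aqp8a.1, with distances of 0.26, 0.44, 0.59, 0.60 and 0.82. The endothelial phosphatase gene ptprb stood at 326 FPKM in the double positive library, 64.0 FPKM in EH_1 and 0.308 FPKM in EH_2. The aquaporin gene aqp8a.1 stood at 568 FPKM in the double positive library, 73.8 FPKM in EH_1 and 1.22 FPKM in EH_2. In all, 10 symbols lay within 1 log2 unit of sele.

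The symbols nearest to selp were mfsd4a, ccr6a, hcst, si:dkeyp-59a8.1 (now ccl38.6) and pou5f3, at distances between 0.19 and 0.33. The chemokine receptor gene ccr6a stood at 4.21 FPKM in the double positive library, 1.32 FPKM in EH_1 and 0.153 FPKM in EH_2. Near selp the scale is crowded, and 225 symbols lay within 1 log2 unit of it. When likeness was measured with 0.1 FPKM added in place of 1, none of the 5 symbols nearest to selp was among its nearest. With that measure 2 of the 5 nearest to sele, ptprb and clec14a, stayed.

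**Figure D5:**
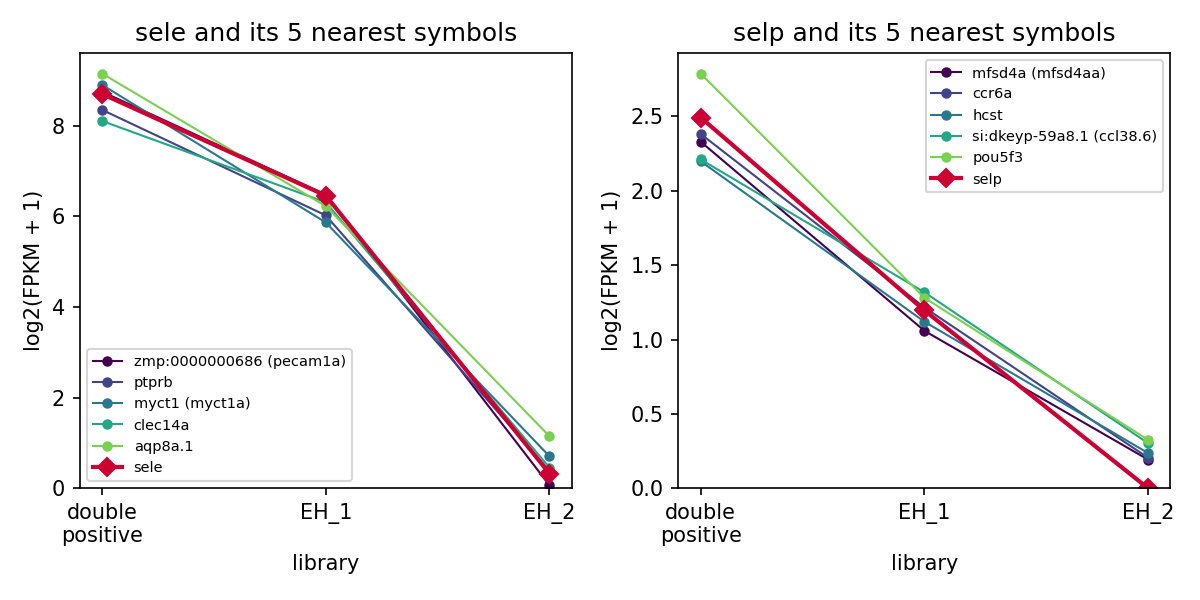
Levels of sele (left) and selp (right), in red, with the 5 symbols nearest to each in pattern, over the double positive, EH_1 and EH_2 libraries on a log2(FPKM + 1) axis, 1 library per point. All lines fall from left to right, sele at 415, 87.0 and 0.254 FPKM and selp at 4.63, 1.29 and 0 FPKM.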

How the data were processed

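RNA of sorted zebrafish cells was measured in 3 libraries, 1 per population. The submitters' processing notes name the tools Cufflinks 2.2.1, TopHat2 2.0.11 and cutadapt, and as genome build Zv9, also called danRer7. No source used here gives the annotation, the filters or the handling of multiply mapped reads. The deposited double positive values are FPKM, as the sheet is named. The values of the kdrl:GFP table carry no unit in the header and were taken as FPKM from the authors' tools. Such values depend on the gene model, and near-identical genes can share reads. Per the labels' protocols, 10000 to 300000 cells were sorted per population and libraries were made from 50 ng of total RNA after removal of ribosomal RNA. Depth is unknown, so no counting interval is given.

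Columns EH_1 and EH_2 were tied to the kdrl:GFP embryos through the workbook named in the labels and to neither fraction. Rank percentiles gave ties their mean rank. Rows of 1 gene name were summed where tables were joined by symbol (765 names have several rows). Of the double positive symbols, 12507 (85.8%) were found in the other table. Ratios between EH_1 and EH_2 were counted at 2-fold among rows at 1 FPKM or more in either. The 8 gene lists (148 entries) and 8 marker lists (85 entries) were matched by exact symbol, and 9 further entries are in the tables only under another name. Of these, vcam1b was counted as vcam1 and the others were not counted. A median over a list covers the members found, which differ between the tables. The rule for named genes took sele, selp, kdrl, the 3 members of each list highest in the double positive library and the 5 symbols nearest in pattern to each selectin gene. Some marker lists are given by medians or sums alone. Other list members named, the neighbouring genes and the genes beside sele by ratio were chosen after values were seen. The members and lists were chosen with earlier results of these data known. The code for 2-fold calls, nearest symbols and rank percentiles was checked on planted cases that were easy to find. Such cases say nothing about noise in these data. A planned comparison of protein and promoter sequences was not made. Python 3.11.15, pandas 2.3.3, numpy 2.4.6 and matplotlib 3.10.9 were used.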

Additional observations from a re-analysis of the deposited data

How the results depend on the processing

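Values were compared as ratios with a tolerance of 1.5 times and as rank percentiles with one of 5 points. Of 69 alternatives, 43 stayed within these and none reversed, but a level or a rank has no sign that could reverse. Without the list medians, 29 stayed and 24 moved. Most list medians repeated the main value because the alternative dropped no member. The cause of the moves was not tested, beyond what each construction shows. Scaled to a fixed sum over each library, sele stood at 777 and selp at 8.65 in the double positive library. In EH_1, sele then stood at 112 and the larger selp row at 1.42. Scaled over the symbols in both tables alone, sele stood at 846 in the double positive library, 259 in EH_1 and 0.839 in EH_2, and selp at 9.42 in the double positive library and 3.27 in EH_1. Ranked among symbols above 0, selp lay at the 37.6th percentile in the double positive library and the 25.8th in EH_1, and sele at the 8.54th in EH_2. Ranked among symbols at 1 FPKM or more, selp lay at the 25.7th percentile in the double positive library and the 1.93rd in EH_1, and sele in EH_2 gave no value. Among symbols in both tables selp lay at the 23.5th in EH_1 and sele at the 10.1st in EH_2. The other selp row lay at the 33.7th in EH_1 and gave a ratio of sele to selp of 459. With 1 FPKM added, the ratio of sele to the larger selp row in EH_1 was 41.9, against 79.0 as reported. The log2 ratio of EH_1 over EH_2 for sele was then 6.13. In the same setting 2528 rows were at least 2-fold lower in EH_1, against 3944 as reported. The count was the same without the filter, which had to be so because rows below 1 FPKM in both cannot then reach 2-fold. Of the 5 symbols nearest to sele, 2 remained with 0.1 FPKM added and 2 by rank percentile, and of those nearest to selp 0 and 2. Of 16 alternative list medians, 2 moved, both with members of other lists left out, to 60.2 FPKM for other adhesion molecules of endothelium and to 63.2 FPKM for the transcription factors. The scaling over shared symbols, the second selp row and the highest row of a gene name were chosen after seeing the data. No paired analysis was possible because each population has 1 library, and no replicate could be left out.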

Other observations

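A further row of the kdrl:GFP table, si:ch211-260g14.9, was noticed because older names of sele and selp come from the same genomic clone, si:ch211-260g14.8 and si:ch211-260g14.4. It stood at 14.04 FPKM in EH_1 and 0.290 FPKM in EH_2, while si:ch211-260g14.10 was listed at 0 in both. No annotation used here places either beside the selectin genes, and neither was found by this name in the double positive table.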
